A study of Ovis aries with 15 samples.

Results

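The toll-like receptors, the co-receptor CD14, the adaptor MYD88 and the NF-kB inhibitor NFKBIA were followed on 15 ovine expression arrays of fetal kidney cortex. The genes were chosen by name, as every probe whose array gene name was TLR plus a number, CD14, MYD88 or NFKBIA. This gave 12 of the 965 named genes, 9 of them toll-like receptors (TLR1 to TLR9), and 21 of the 15008 probes of the array. Of these, 9 genes (16 probes) were well above background on at least 3 of the 15 arrays and were tested, namely TLR2, TLR3, TLR4, TLR5, TLR6, TLR7, CD14, MYD88 and NFKBIA. TLR1, TLR8 and TLR9 (5 probes) did not reach that level. The members and all gene lists below were chosen with earlier results of these data known. Their counts beside the shares of all probes are therefore descriptions, not tests.

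Each array measured total RNA from the kidney cortex of 1 catheterized sheep fetus at 125 ± 3 days of gestation. The normoxic vehicle group (n = 3) had 30 min of normoxia and saline. The normoxic ketamine group (n = 4) had the same 30 min of normoxia and ketamine at 3 mg/kg. The hypoxic vehicle group (n = 4) had 30 min of hypoxia and saline, the hypoxia being brought about through the ventilation of the ewe. The hypoxic ketamine group (n = 4) had the same hypoxia and ketamine at 3 mg/kg. Ketamine, an anaesthetic that blocks NMDA receptors, was given into a fetal vein 10 min before the hypoxia. All fetuses carried catheters, and the cortex was taken 24 h after the start of hypoxia or normoxia, so the values describe 1 time point. The fetuses had been assigned to the groups at random, and each array is a separate fetus.

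Toll-like receptors recognise microbial products and molecules released by damaged cells. TLR4 with CD14 binds bacterial lipopolysaccharide, TLR2 pairs with TLR1 or TLR6 on lipoproteins, TLR5 binds flagellin, and TLR3, TLR7, TLR8 and TLR9 read nucleic acids inside endosomes. All of these receptors except TLR3 signal through the adaptor MYD88 to NF-kB, which turns on cytokine genes and also NFKBIA, the gene of the protein that holds NF-kB in the cytoplasm. In the kidney, tubule cells, endothelium and resident or infiltrating leukocytes can all carry these receptors, and in RNA of whole cortex more cells of a type and more RNA per cell cannot be told apart.

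The probes behind the results are shown because several of them overlap, so that probes of a gene are not always separate measurements. They are oligonucleotides of 60 bases, printed as the scanner files give them, and capitals mark the bases that a probe shares with the other probe of its gene.
NFKBIA: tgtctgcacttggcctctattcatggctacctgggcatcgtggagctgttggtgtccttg
TLR2, main probe: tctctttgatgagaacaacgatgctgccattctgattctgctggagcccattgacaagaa
TLR2, second probe: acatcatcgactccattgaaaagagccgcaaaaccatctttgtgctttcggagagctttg
TLR4: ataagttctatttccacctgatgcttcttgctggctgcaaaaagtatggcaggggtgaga
CD14, main probe: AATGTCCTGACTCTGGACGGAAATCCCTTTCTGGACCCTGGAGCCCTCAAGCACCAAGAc
CD14, second probe: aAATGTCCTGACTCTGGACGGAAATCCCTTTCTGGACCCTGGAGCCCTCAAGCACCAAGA
MYD88, main probe: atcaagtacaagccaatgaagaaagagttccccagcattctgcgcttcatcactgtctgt
MYD88, second probe: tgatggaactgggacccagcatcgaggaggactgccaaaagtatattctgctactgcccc
TLR3, main probe: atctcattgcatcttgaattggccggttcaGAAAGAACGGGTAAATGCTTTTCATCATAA
TLR3, second probe: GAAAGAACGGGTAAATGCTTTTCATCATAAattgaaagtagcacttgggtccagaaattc
The CD14 probes are the same sequence moved by 1 base and share 59 bases, and the TLR3 probes share 30. The 2 TLR2 probes and the 2 MYD88 probes do not overlap, so for these genes the second probe read another stretch of the transcript. NFKBIA and TLR4 had 1 probe each. The 3 TLR6 probes each list a TLR1 transcript beside that of TLR6, so their signal cannot be assigned to TLR6 alone. For a gene with several probes, the values below are from the probe with the highest mean signal.

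Signals are given on a scale on which 1000 is the 75th percentile of an array. They compare arrays for 1 probe, not 1 probe with another. Changes are differences of log2 signal ± SE from a limma model over all 15 arrays, and a gene was called higher or lower when its p before adjustment was 0.05 or less, the threshold that the study states. Adjusted p-values are limma's, with Benjamini-Hochberg adjustment over all 12923 tested probes. After adjustment 2 probes (0.0155%) passed in hypoxic against normoxic vehicle fetuses and 0 in the other comparisons, and none was a probe of these genes. The arrays lay on 2 slides. Slide 1 held 2 arrays of each group, and slide 2 held 2 of each group except normoxic vehicle, of which it held 1. Results within slide 2 that use the normoxic vehicle group thus rest on 1 fetus of that group. Results within a slide are parts of the same data, not a replication.

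Hypoxia without ketamine was compared first. Of the 9 tested genes 5 rose and 0 fell in hypoxic against normoxic vehicle fetuses, namely TLR2, TLR4, CD14, MYD88 and NFKBIA. Among all 12923 probes 5.77% rose, 10.4% fell and 16.1% were called in either direction. The median change of the 9 genes was 0.58, against -0.05 over all tested probes. In 5 of the 9 genes every hypoxic vehicle array lay above every normoxic vehicle array, against 5.04% of all probes. With limma's adjustment over all probes the p-values of the 9 genes ran from 0.114 to 0.985, so none passed. The 5 genes that rose include a receptor for lipoproteins, the lipopolysaccharide receptor and its co-receptor, their common adaptor and an NF-kB target. TLR3, TLR5, TLR6 and TLR7 were not called.

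**Figure D1:**
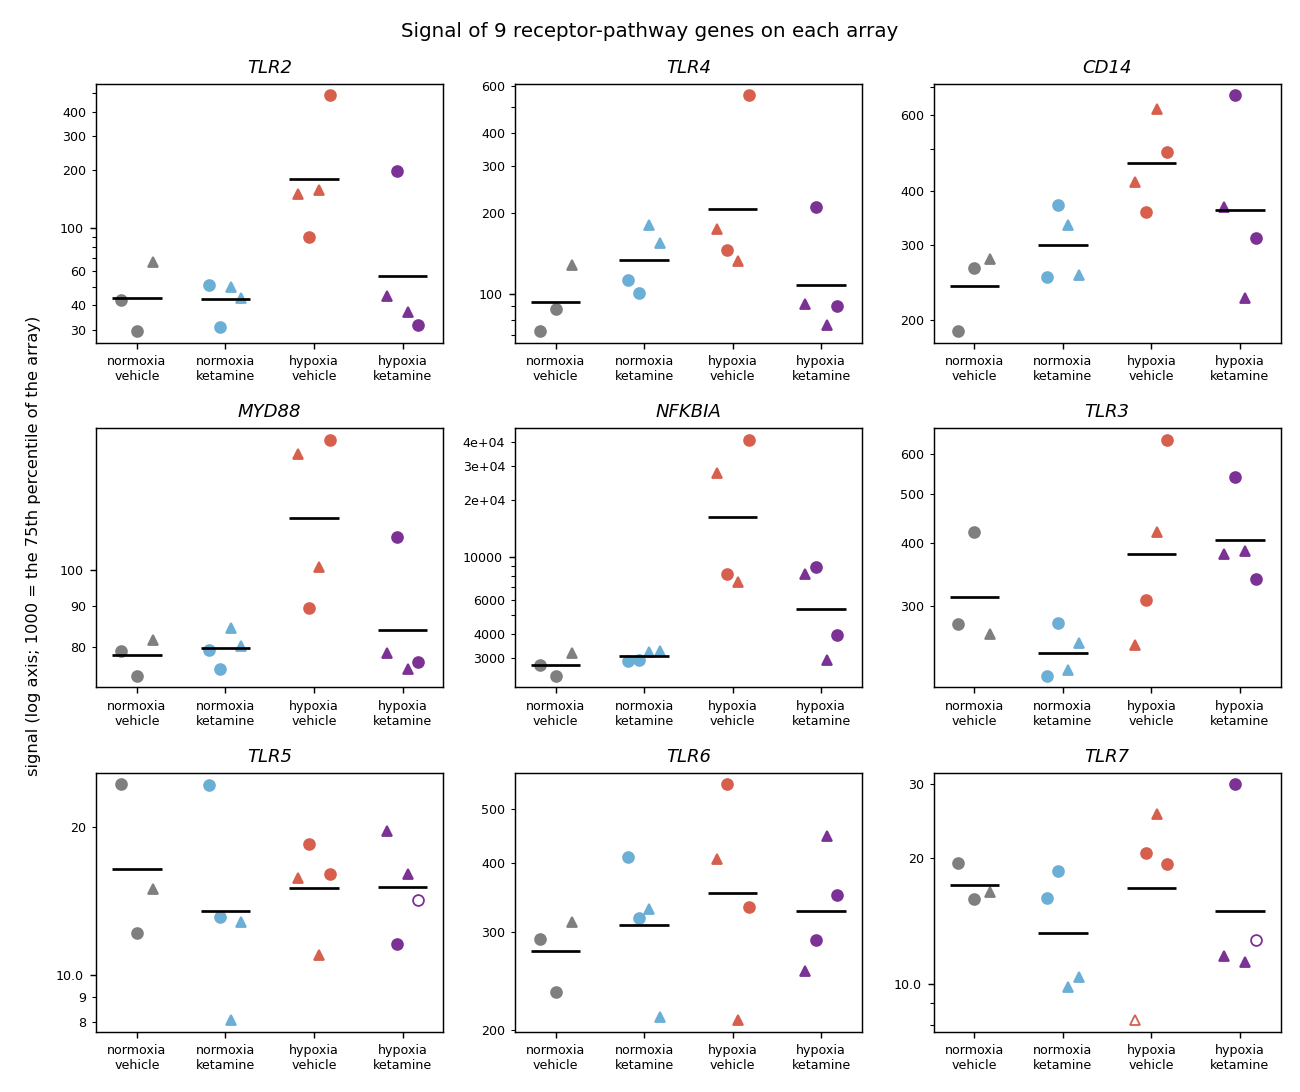
Signal of the main probe of each of the 9 tested genes on every array, on a log axis where 1000 is the array's 75th percentile. Circles are arrays of slide 1 and triangles of slide 2, open symbols were not well above background, and bars are geometric means; the NFKBIA signal is between 7409 and 40872 on the hypoxic vehicle arrays and at most 3261 on the normoxic ones.

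TLR2 signal was 42.6, 29.5 and 67.0 on the normoxic vehicle arrays, 51.0, 31.0, 49.99 and 43.6 on the normoxic ketamine arrays, 151, 90.3, 159 and 486 on the hypoxic vehicle arrays, and 44.5, 198, 37.0 and 31.8 on the hypoxic ketamine arrays. All 4 hypoxic vehicle arrays were above all 7 normoxic arrays, and of the hypoxic ketamine arrays only replicate 2 was. This probe was spotted 5 times on each array, and the SD of log2 signal between its spots was 0.04 to 0.20 with a median of 0.11, while the SD between fetuses of a group ran from 0.33 to 1.22. The rise in vehicle fetuses was 4.11-fold (log2 change 2.04 ± 0.62, 95% interval 0.71 to 3.37, adjusted p = 0.173), and the second TLR2 probe gave 2.15 ± 0.71. The call of the second probe was lost without normoxic vehicle replicate 2 (1.71). In hypoxic fetuses TLR2 was 3.17-fold lower with ketamine than with vehicle (-1.66 ± 0.57, -2.90 to -0.43, adjusted p = 0.800), and the second probe gave -1.88 ± 0.65. For the second probe this difference was not called with normexp background correction (-0.67) or within slide 1 (-1.62). The geometric means ran in the order hypoxic vehicle (180), hypoxic ketamine (56.8), normoxic vehicle (43.8) and normoxic ketamine (43.1), and only the first step passed the threshold. The rise was called within slide 1 (2.56), with the slide as a block (2.06) and without hypoxic vehicle replicate 4 (1.56). Within slide 2, which held 1 normoxic vehicle array, it was 1.21. The difference with ketamine was called within slide 2 (-1.93) and with the block (-1.66) but not within slide 1 (-1.40). With normexp background correction the rise was 1.15 and still called, and the difference with ketamine was -0.77 and not called.

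TLR4 signal was 72.6, 87.6 and 129 in normoxic vehicle fetuses, 112, 101, 181 and 155 in normoxic ketamine fetuses, 174, 145, 133 and 551 in hypoxic vehicle fetuses, and 92.0, 212, 76.7 and 90.3 in hypoxic ketamine fetuses. Hypoxic vehicle replicate 4 stood far above the rest, and the other 3 hypoxic vehicle arrays lay within the range of the normoxic ketamine arrays but above the normoxic vehicle ones. The rise in vehicle fetuses was 2.22-fold (1.15 ± 0.47, 95% interval 0.15 to 2.15, adjusted p = 0.260), and in hypoxic fetuses the level with ketamine was 1.93-fold lower (-0.95 ± 0.43, -1.87 to -0.02, adjusted p = 0.803). Within slide 2, which did not hold hypoxic vehicle replicate 4, the rise was 0.24 and not called, against 1.83 within slide 1 and 1.17 with the slide as a block, both called. It was not called without hypoxic vehicle replicate 4 (0.68), normoxic vehicle replicate 1 (0.97) or normoxic vehicle replicate 2 (1.102), nor in a fit of these 2 groups alone (1.15). The difference with ketamine was not called with the slide as a block (-0.95), within slide 1 (-1.03), with normexp background correction (-0.53), with quantile scaling (-0.89), in the authors' deposited values (-0.76) or without hypoxic vehicle replicate 4 (-0.48), and it was called within slide 2 (-0.86). It also missed the threshold without any 1 of 10 other arrays, where it ran from -1.03 to -0.78. In order of level, no step between neighbours passed, the largest being hypoxic vehicle (208) over normoxic ketamine (133).

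CD14 signal was 189, 265 and 278 in normoxic vehicle fetuses, 252, 370, 333 and 255 in normoxic ketamine fetuses, 420, 358, 621 and 494 in hypoxic vehicle fetuses, and 367, 668, 225 and 311 in hypoxic ketamine fetuses. Hypoxic and normoxic vehicle fetuses did not overlap, while the hypoxic ketamine arrays held the highest value of all and 1 value below most normoxic ones. The rise in vehicle fetuses was 1.93-fold (0.95 ± 0.31, 95% interval 0.28 to 1.61, adjusted p = 0.192), and the overlapping second probe gave 1.09 ± 0.33. It was called with the slide as a block (0.96) but not within slide 1 (0.91) or slide 2 (0.88) alone. In hypoxic fetuses the difference with ketamine was -0.36 ± 0.29 (-0.97 to 0.26) and not called, and the second probe gave -0.59 ± 0.30. Within slide 1 it was 0.12 and within slide 2 it was -0.83. Without hypoxic ketamine replicate 2 it was -0.65 and called. No step in the order hypoxic vehicle (463), hypoxic ketamine (362), normoxic ketamine (298) and normoxic vehicle (240) passed.

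MYD88 signal was 79.1, 73.7 and 81.6 in normoxic vehicle fetuses, 79.4, 74.98, 84.5 and 80.1 in normoxic ketamine fetuses, 140, 89.4, 101 and 146 in hypoxic vehicle fetuses, and 78.6, 110, 75.05 and 76.7 in hypoxic ketamine fetuses. The 7 normoxic arrays lay close together, all 4 hypoxic vehicle arrays were above them, and among the hypoxic ketamine arrays only replicate 2 was. The rise in vehicle fetuses was 1.49-fold (0.58 ± 0.18, 95% interval 0.19 to 0.96, adjusted p = 0.174), and the second probe, of another stretch of the transcript, gave 0.54 ± 0.24 and was called. That call was lost with normexp background correction (0.06), in the authors' deposited values (0.22), within slide 1 (0.38) and on leaving out normoxic vehicle replicate 1, 2 or 3 or hypoxic vehicle replicate 1, 3 or 4 (0.46 to 0.60). In hypoxic fetuses MYD88 was 1.38-fold lower with ketamine (-0.47 ± 0.16, -0.82 to -0.11, adjusted p = 0.800), and the second probe gave -0.30 ± 0.22 and was not called. In the order of level, only the step from hypoxic vehicle (116) to hypoxic ketamine (84.0) passed. With normexp background correction the rise was 0.28 and the difference with ketamine -0.09, neither of them called. The authors' deposited values gave 0.41, called, and -0.25, not called. The rise was called with the slide as a block (0.58) but not within slide 1 (0.58) or slide 2 (0.54). The difference with ketamine was called with the block (-0.47) and within slide 2 (-0.63) but not within slide 1 (-0.31), nor in a fit of these 2 groups alone (-0.47).

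NFKBIA had the largest change of the 9 genes between hypoxic and normoxic vehicle fetuses. Its signal was 2742, 2424 and 3169 in normoxic vehicle fetuses and 2880, 2934, 3200 and 3261 in normoxic ketamine fetuses. It was 27364, 8222, 7409 and 40872 in hypoxic vehicle fetuses and 8192, 8900, 2920 and 3918 in hypoxic ketamine fetuses. Every hypoxic vehicle array was above every normoxic array, and replicates 1 and 4 were far above replicates 2 and 3. Hypoxic ketamine replicates 1 and 2 were at the level of the lower hypoxic vehicle arrays, replicate 4 was slightly above the normoxic range and replicate 3 was inside it. The rise in vehicle fetuses was 5.85-fold (2.55 ± 0.54, 95% interval 1.38 to 3.71, adjusted p = 0.114), and in hypoxic fetuses the level with ketamine was 3.01-fold lower (-1.59 ± 0.50, -2.67 to -0.51, adjusted p = 0.800). The step from hypoxic vehicle (16156) to hypoxic ketamine (5374) passed, and those from there to normoxic ketamine (3064) and to normoxic vehicle (2762) did not. The rise was called within slide 1 (2.83), with the slide as a block (2.56) and without hypoxic vehicle replicate 4 (2.10), and not within slide 2 (2.17). The difference with ketamine was called with the block (-1.59) and without that array (-1.14), and not within slide 1 (-1.63) or slide 2 (-1.54).

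TLR3, the receptor for double-stranded RNA, was called in another comparison than the 5 genes above. Its signal was 276, 420 and 264 in normoxic vehicle fetuses, 219, 278, 224 and 254 in normoxic ketamine fetuses, 252, 308, 420 and 639 in hypoxic vehicle fetuses, and 381, 541, 386 and 340 in hypoxic ketamine fetuses. All hypoxic ketamine arrays were above all normoxic ketamine arrays, as in 2.82% of all probes, whereas the vehicle groups overlapped. In hypoxic against normoxic ketamine fetuses it rose 1.67-fold (0.74 ± 0.26, 95% interval 0.19 to 1.29, adjusted p = 0.423), and the second probe, which shares 30 of its 60 bases, gave 0.69 ± 0.28. In vehicle fetuses the difference was 0.28 ± 0.28 (-0.32 to 0.88) and not called. The difference between these responses was 0.46 ± 0.38 and not called, so the response is not shown to depend on ketamine. That difference was 0.71 and called without hypoxic vehicle replicate 4. The order was hypoxic ketamine (405), hypoxic vehicle (380), normoxic vehicle (313) and normoxic ketamine (243), and none of its steps passed. The rise in ketamine fetuses was called with the slide as a block (0.74), and not within slide 1 (0.80), within slide 2 (0.68) or without the 3 arrays that held placental lactogen (0.63).

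TLR5, TLR6 and TLR7 were not called in any of the comparisons. TLR6 signal, which may include TLR1, was 234 to 312 in normoxic vehicle fetuses, 211 to 409 in normoxic ketamine fetuses, 208 to 554 in hypoxic vehicle fetuses and 255 to 447 in hypoxic ketamine fetuses. Its change with hypoxia in vehicle fetuses was 0.35 ± 0.30 (95% interval -0.31 to 1.01), and its 3 probes correlated at r = 0.94 to 0.96 over the 15 arrays. That change was called without hypoxic vehicle replicate 3 (0.61). TLR5, the flagellin receptor, ran from 8.09 to 24.5 over all arrays and was well above background on 14 of them. TLR7, a receptor for single-stranded RNA, ran from 8.21 to 30.0 and was well above background on 13. The change with hypoxia in vehicle fetuses was -0.13 ± 0.33 for TLR5 (95% interval -0.85 to 0.59) and -0.03 ± 0.40 for TLR7 (-0.89 to 0.84). Within slide 2 TLR5 was called higher in hypoxic than in normoxic ketamine fetuses (0.81), and within slide 1 the difference was -0.48. The second TLR7 probe was well above background on 3 of 4 hypoxic vehicle and 2 of 4 hypoxic ketamine arrays and on 0 of the 7 normoxic ones. It entered the test only through hypoxic arrays, and no fold is given for it.

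TLR1, TLR8 and TLR9 were not tested. The TLR1 probe and both TLR9 probes were well above background on 0 of the 15 arrays. Each TLR8 probe was well above background on 2 arrays, and the 2 probes, which share 59 of their bases, correlated at r = 0.50 over the 15 arrays. The signal of the TLR1 probe ran from 1.54 to 6.98 and that of the TLR9 probes from 1.16 to 6.40. These genes therefore have no measured order between the groups.

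**Figure D2:**
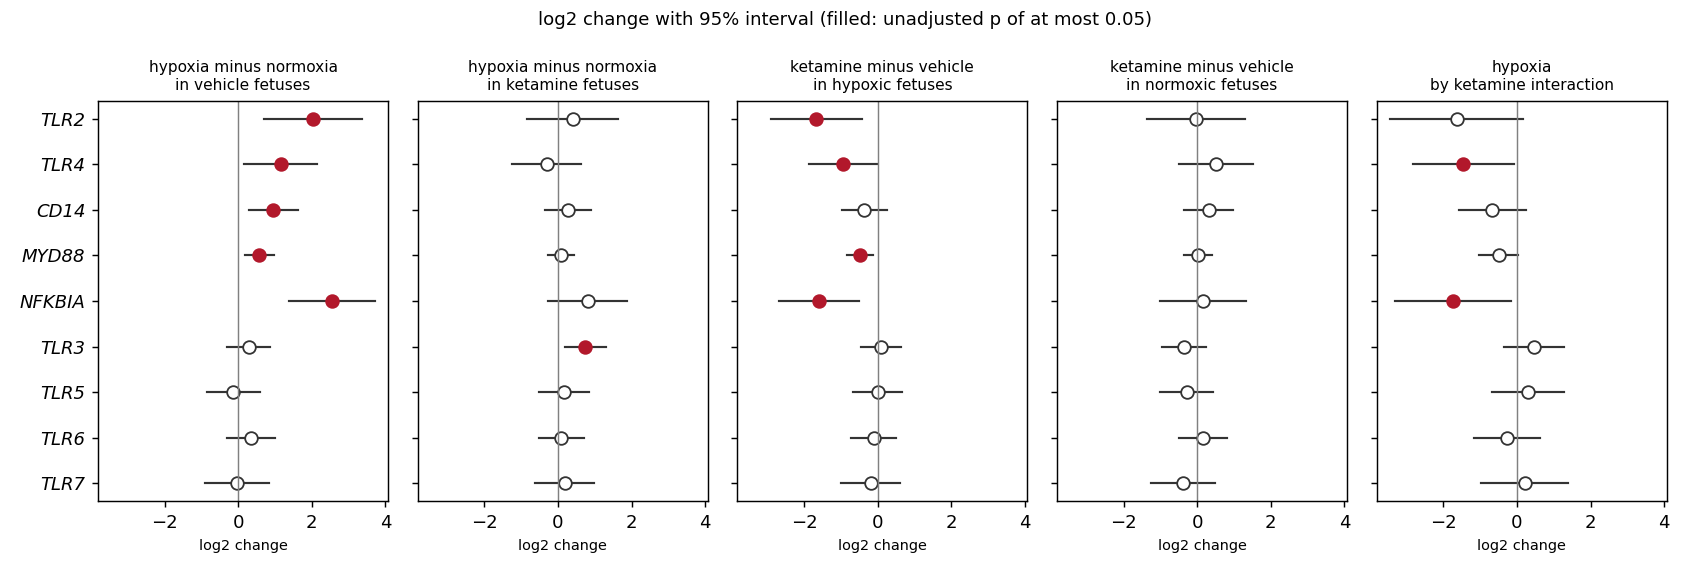
log2 change of the 9 tested genes in the 5 comparisons, with 95% intervals; filled points had an unadjusted p of at most 0.05. The filled points are TLR2, TLR4, CD14, MYD88 and NFKBIA above 0 in the first panel, TLR3 in the second, TLR2, TLR4, MYD88 and NFKBIA below 0 in the third, none for ketamine in normoxic fetuses, and TLR4 and NFKBIA below 0 for the interaction.

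Among ketamine fetuses, hypoxia raised 1 of the 9 genes, TLR3, and lowered 0, where 3.71% of all probes rose and 8.67% were called in either direction. The difference for NFKBIA was 0.81 ± 0.50 (95% interval -0.27 to 1.89) and that for TLR2 was 0.40 ± 0.57 (-0.83 to 1.63). It was 0.28 ± 0.29 (-0.34 to 0.90) for CD14, 0.08 ± 0.16 (-0.28 to 0.43) for MYD88 and -0.31 ± 0.43 (-1.24 to 0.62) for TLR4. The median of the 9 genes was 0.18, against -0.02 over all probes. In a fit of these 2 groups alone NFKBIA was also called (0.81). Within slide 2 TLR4 was called lower (-0.99), and within slide 1 its difference was 0.38.

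Ketamine was set against vehicle in hypoxic fetuses. Of the 9 genes 4 were lower with ketamine and 0 higher, namely TLR2, TLR4, MYD88 and NFKBIA, where 3.49% of all probes were lower and 6.07% were called in either direction. The median of the 9 genes was -0.36, against 0.02 over all probes. In 0 of the 9 genes did the 2 groups stay apart (1.97% of all probes), and hypoxic ketamine replicate 2 lay within or above the range of the hypoxic vehicle arrays for TLR2, TLR4, CD14, MYD88 and NFKBIA. Replicate 1 did too for NFKBIA and CD14. This comparison and the first share the 4 hypoxic vehicle arrays, so their opposite directions are not separate evidence. In a fit of these 2 groups alone TLR2 and NFKBIA were called, and within slide 1 none of the 9 genes was. The SE of the main fit draws on the normoxic groups as well. In the fit of these groups alone it was larger for MYD88 (0.21 against 0.16) and for TLR4 (0.50 against 0.43).

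Without hypoxia, ketamine changed 0 of the 9 genes, where 2.71% of all probes were called by limma before adjustment and 0 after it. The median of the 9 genes was 0.03, against -0.02 over all probes. The largest difference was that of TLR4 (0.51 ± 0.47, 95% interval -0.49 to 1.52), which was called with array weights (0.67) and without hypoxic vehicle replicate 4 and hypoxic ketamine replicate 2 (0.51). For NFKBIA the interval was -1.01 to 1.31 and for TLR2 it was -1.36 to 1.31, which spans a log2 change of 1 in either direction. For MYD88 it was narrower, from -0.35 to 0.41. The model takes 1 variance per probe from all groups, so these intervals do not measure the spread of the normoxic fetuses alone. For NFKBIA the SD of log2 signal was 0.19 in normoxic vehicle and 0.09 in normoxic ketamine fetuses. In hypoxic vehicle fetuses this SD was 1.24, and in hypoxic ketamine fetuses 0.79.

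The response to hypoxia was compared between ketamine and vehicle fetuses by the interaction term. It was below 0 and called for 2 of the 9 genes, NFKBIA (-1.74 ± 0.74, 95% interval -3.32 to -0.15) and TLR4 (-1.46 ± 0.63, -2.83 to -0.09), where 1.1% of all probes were called below 0 and 3.15% in either direction. The adjusted p was 0.989 for each of the 9 genes. The median of the 9 genes was -0.50, against 0.03 over all probes. TLR2 had -1.64 ± 0.84, CD14 -0.67 ± 0.42 and MYD88 -0.50 ± 0.24, none of them called. The second CD14 probe gave -1.003 ± 0.44 and was called, but not with normexp background correction (-0.66), within slide 1 (-0.71), within slide 2 (-1.17) or without any 1 of 8 arrays. These were normoxic vehicle replicate 1, normoxic ketamine replicates 2 and 3, hypoxic vehicle replicates 3 and 4, and hypoxic ketamine replicates 1, 3 and 4, and the value without one of them ran from -1.02 to -0.77. The count depended on single fetuses. It was 0 without normoxic vehicle replicate 1 or 2, normoxic ketamine replicate 3 or 4, or hypoxic ketamine replicate 3 or 4. It was 1 without hypoxic vehicle replicate 1 or hypoxic ketamine replicate 1, 3 without hypoxic vehicle replicate 3 and 4 without hypoxic vehicle replicate 2. Without hypoxic ketamine replicate 2 it was 5, adding TLR2 (-2.24), CD14 (-0.96) and MYD88 (-0.63). Without hypoxic vehicle replicate 4 the only call was TLR3, above 0, with NFKBIA at -1.29 and TLR4 at -0.99. Within slide 1 neither NFKBIA (-1.81) nor TLR4 (-1.45) was called. Within slide 2, which held 1 normoxic vehicle array, NFKBIA was at -1.57 and TLR4 at -1.23. With the slide as a block both were called, at -1.75 and -1.48. With normexp background correction TLR4 was not called (-0.82).

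**Figure D3:**
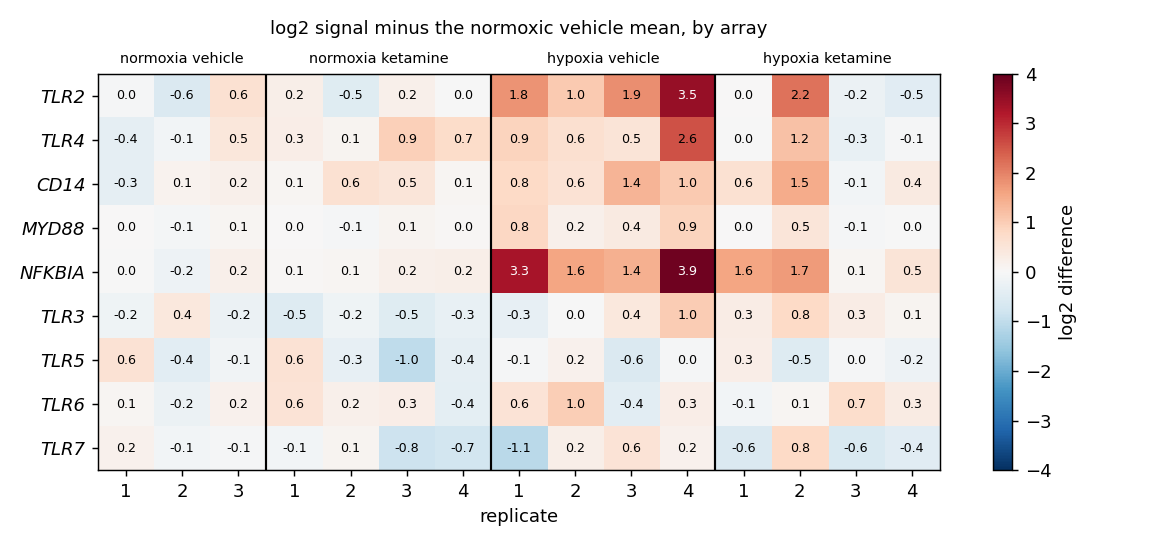
log2 signal of each gene on each array minus the mean of the 3 normoxic vehicle arrays, with red above and blue below it. TLR2 is at least 1.04 and NFKBIA at least 1.42 on the hypoxic vehicle arrays, hypoxic ketamine replicate 2 is at 0.50 to 2.18 for TLR2, TLR4, CD14, MYD88 and NFKBIA, and the other hypoxic ketamine arrays are between -0.46 and 0.02 for TLR2, TLR4 and MYD88.

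The fetuses of a hypoxic group differed more among themselves than the normoxic ones. The median SD of log2 signal over the 9 genes was 0.30 in normoxic vehicle, 0.33 in normoxic ketamine, 0.59 in hypoxic vehicle and 0.66 in hypoxic ketamine fetuses, against 0.18, 0.21, 0.29 and 0.24 over all tested probes. Hypoxic vehicle replicate 4 and hypoxic ketamine replicate 2 were the arrays that correlated least with the others (median r = 0.952 and 0.966, against 0.969 to 0.985 for the rest). They also had the highest signal of HBB, a globin gene and the 1 erythroid marker measured of 8 listed, at 47624 and 56739 against 8770 to 28689 on the other 13 arrays. Both arrays had the highest TLR2, TLR3, TLR4, MYD88 and NFKBIA signals of their groups as well. HBB was not called in any of the 5 comparisons, and its part in the receptor values was not tested. Leaving both arrays out was chosen after the data were seen, so the calls without them are not a separate check. TLR2, TLR4, CD14, MYD88 and NFKBIA were then the 5 genes called in vehicle fetuses, with changes of 1.56, 0.68, 0.92, 0.47 and 2.10. For TLR4 the change was also 0.68 without hypoxic vehicle replicate 4 alone, but was not called. The variance is shared by all groups, so leaving out an array of another group can alter a call. In hypoxic fetuses without both arrays the same 5 were lower with ketamine, by -1.79, -0.80, -0.62, -0.49 and -1.38, and the interaction was called for all 5 of them. TLR4 was then called lower in hypoxic than in normoxic ketamine fetuses (-0.63). TLR2, MYD88 and NFKBIA varied together over the 15 arrays, with r = 0.93 for MYD88 with TLR2, 0.93 for MYD88 with NFKBIA and 0.87 for TLR2 with NFKBIA. These values describe arrays that share the treatment differences, and after removal of the group means r was 0.84, 0.87 and 0.69. TLR4 varied with these genes too, at r = 0.86 with TLR2, 0.82 with MYD88 and 0.75 with NFKBIA. After removal of the group means these were 0.87, 0.79 and 0.75. TLR5 and TLR6 did not follow TLR2, MYD88 and NFKBIA, with r between -0.08 and 0.17 against them.

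Other genes of the pathway were read from lists sorted by role. None of the 10 ligands and co-receptors and none of the 12 inhibitors listed were named on the array. Of 23 adaptors and kinases 3 were measured (IRAK4, TRAF3 and IKBKB). In hypoxic vehicle fetuses 1 rose, the NF-kB-activating kinase IKBKB (0.64 ± 0.26), and in hypoxic fetuses 1 was lower with ketamine, TRAF3, a signalling adaptor of the receptors (-0.61 ± 0.19). Of 10 transcription factors 3 were measured and 1 rose in vehicle fetuses, IRF1, an interferon regulatory factor (3.36 ± 1.05). Among all probes 5.77% rose in vehicle fetuses, and 3.49% were lower with ketamine in hypoxic fetuses. A probe that the array names NFKB without a subunit, singled out after its values were seen, rose in vehicle fetuses (1.26 ± 0.57) and was lower with ketamine in hypoxic fetuses (-1.20 ± 0.53).

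Of 27 target genes 17 were on the array and 14 passed the filter on dim probes. In vehicle fetuses hypoxia raised 9 and lowered 0, where 5.77% of all probes rose and 10.4% fell. In ketamine fetuses it raised 2, where 3.71% of all probes rose. In hypoxic fetuses 6 were lower with ketamine, where 3.49% of all probes were. Those that rose in ketamine fetuses were TNF (1.52 ± 0.62) and the chemokine CXCL10 (3.15 ± 1.42). Ketamine in normoxic fetuses changed none of the 14 at this threshold, where 2.71% of all probes were called. The interaction was called for 2, TNF (-2.53 ± 0.91) and the cytokine IL1B (-2.66 ± 1.06), where 1.1% of all probes were called below 0. CXCL10 and IL1B were named after their values were seen. Genes can pass the filter through the hypoxic arrays alone, so these counts are descriptions. IL6, a cytokine, was well above background on 2 of 4 hypoxic vehicle arrays, 3 of 4 hypoxic ketamine arrays and 0 of 7 normoxic ones, so it entered the test only through hypoxic arrays, and no fold is given for it. The pattern recognition protein PTX3 rose by 5.04 ± 1.41, the neutrophil-attracting chemokine CXCL8 by 4.56 ± 1.24 and the cytokine TNF by 4.05 ± 0.67 (adjusted p = 0.0654). With ketamine in hypoxic fetuses CXCL8 was lower (-3.31 ± 1.14) and so was TNF (-2.65 ± 0.62), while PTX3 was not called (-2.26 ± 1.30).

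Some leukocyte markers rose with hypoxia as well. Of 16 listed monocyte and macrophage markers 6 were measured. CD86, FCGR1A, FCGR2B and FCER1G rose in vehicle fetuses, and the same 4 rose in ketamine fetuses, by 1.38, 1.46, 1.68 and 1.17. Among all probes 5.77% rose in vehicle and 3.71% in ketamine fetuses. ITGAM and LYZ (1.15 ± 0.80) were not called in ketamine fetuses. In hypoxic fetuses 0 of the 6 were called between ketamine and vehicle (6.07% of all probes), with a median difference of -0.14. Their summed signal was 715 to 812 in normoxic vehicle, 552 to 966 in normoxic ketamine, 953 to 3728 in hypoxic vehicle and 1198 to 3700 in hypoxic ketamine fetuses. The sum weighs bright probes most. FCER1G had the highest geometric mean of the 6 in each group, at 1014 in hypoxic vehicle fetuses against 303 for CD86 and 98.1 for FCGR2B. ITGAM, another of the 6, was well above background on 0 of the 7 normoxic arrays. It entered the test only through hypoxic arrays, and no fold is given for it. The highest sums were those of hypoxic vehicle replicate 3 and hypoxic ketamine replicate 2. Hypoxic vehicle replicate 1, with the second highest NFKBIA signal (27364), had a marker sum of 953, which is within the normoxic ketamine range. TLR2 was at 44.5, 37.0 and 31.8 on the 3 hypoxic ketamine arrays whose marker sums were 1496, 1198 and 1399, and at 486 on hypoxic vehicle replicate 4 with a sum of 1598. The next highest TLR2 signals were on the arrays with the highest sums. These were 198 on hypoxic ketamine replicate 2 (sum 3700) and 159 on hypoxic vehicle replicate 3 (sum 3728). Of 13 neutrophil markers 3 were measured. CATHL3 rose in ketamine fetuses (3.17 ± 1.25), and LTF and MMP9 were not called. Their summed signal was 203 to 2353 on the normoxic and 535 to 30739 on the hypoxic arrays. Most of it was CATHL3, with geometric means in hypoxic vehicle fetuses of 3059, against 184 for LTF and 5.89 for MMP9. Hypoxic vehicle replicates 1 and 4 (535 and 920) and hypoxic ketamine replicates 1 and 3 (1099 and 961) lay within the normoxic range. Of 11 T and NK cell markers 4 were tested. CD5 rose in both hypoxic groups, and CD3D, CD3E and CD247 were not called. The geometric means of CD3D and CD3E were higher with hypoxia. That of CD247 was lower, at 213 against 296 in vehicle and 248 against 320 in ketamine fetuses. None of the B cell markers was named on the array. Of 8 listed endothelial markers 6 were measured. In vehicle fetuses hypoxia raised 1 and lowered 1 of them, where 5.77% of all probes rose and 10.4% fell. Their median change was -0.30. The geometric mean of SELP was 22.1 in normoxic and 639 in hypoxic vehicle fetuses, and that of FLT1 was 59.3 and 69.0. Those of PECAM1, KDR, TEK and TIE1 were lower in hypoxic vehicle fetuses. The part of these cells in the receptor changes was not tested.

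**Figure D4:**
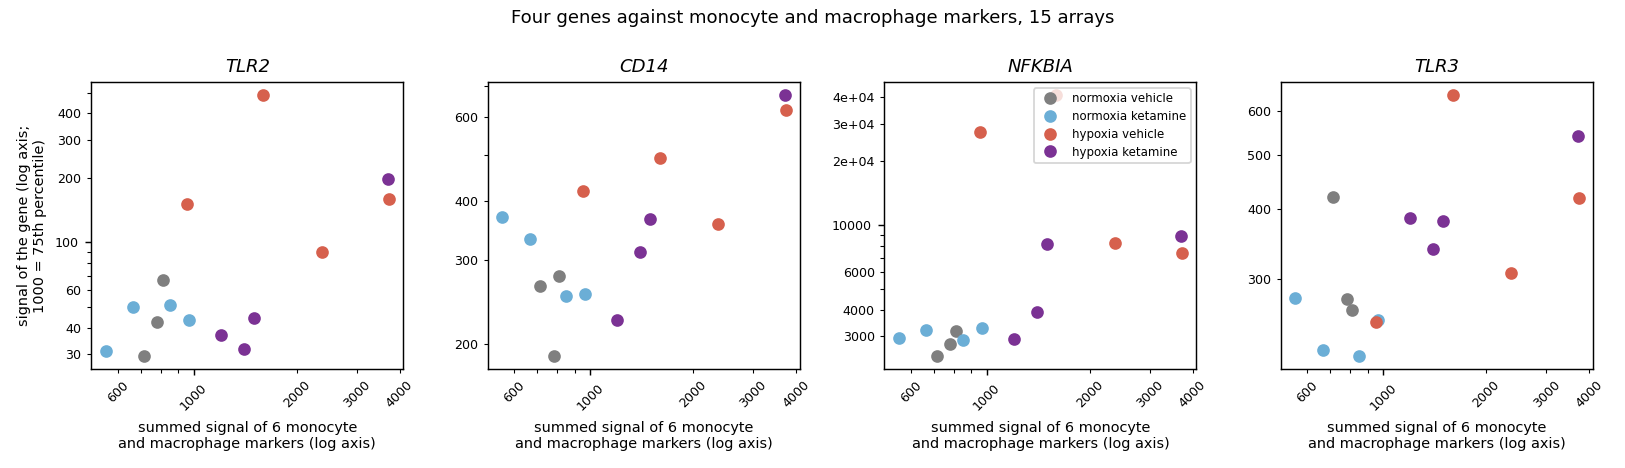
Signal of TLR2, CD14, NFKBIA and TLR3 against the summed signal of 6 monocyte and macrophage markers on the 15 arrays, both on log axes. Of the 6 markers FCER1G had the highest geometric mean in each group. CD14 is highest, at 668 and 621, on the 2 arrays with the highest marker sums, while the highest NFKBIA and TLR2 signals, 40872 and 486, are on an array with a sum of 1598. The next highest TLR2 signals, 198 and 159, are on the 2 arrays with the highest marker sums.

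The tissue carried markers of kidney cortex on every array. The proximal tubule genes SLC34A1, AQP1, SLC4A4 and PCK1, the podocyte gene WT1 and the collecting duct genes AQP2 and AQP3 were well above background on all 15 arrays. With hypoxia SLC4A4 fell in vehicle (-0.54 ± 0.17) and ketamine fetuses (-0.61 ± 0.16), and AQP3 rose in vehicle fetuses (0.73 ± 0.22), and the part of tubule cells in the receptor changes was not tested. Of the adrenal genes, CYP17A1 was too, STAR was on 2 arrays and CYP11A1 on 0. Placental lactogen was well above background on 3 arrays, normoxic ketamine replicates 1 and 2 and hypoxic ketamine replicate 2. Without these 3 arrays the counts of genes called were 5 higher in vehicle fetuses, 0 in ketamine fetuses, 5 lower with ketamine in hypoxic fetuses and 5 for the interaction.

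The named genes whose log2 signal followed each member most closely over the 15 arrays were listed from 830 genes. For NFKBIA they were the endothelial adhesion molecule SELP (r = 0.97), CXCL8 (0.96) and the transcription factor JUNB (0.96). For MYD88 they were CXCL8 (0.95), the transcription factor CREM (0.95) and the glucose transporter SLC2A3 (0.94). TLR2 was closest to the survival gene MCL1 (0.90), IRF2 (0.90) and TNF (0.90), and TLR4 to XBP1 (0.87), SARS (0.86) and RASSF1 (0.86). For CD14 the list was PDXK (0.93), the lactate dehydrogenase gene LDHA (0.92) and PTGFR (0.90). TLR3 stood beside FLT3LG (0.89) and the interferon-induced genes MX2 (0.86) and ISG15 (0.85), and TLR7 beside MSTN (0.87). The values for TLR5 (0.73 at most) and TLR6 (0.77 at most) were lower. Arrays of a group share their treatment, and without the 2 arrays farthest from the median of the gene r fell to 0.60 for TLR4 with XBP1 and to 0.67 for TLR3 with MX2, while it was 0.98 for NFKBIA with SELP.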

How the data were processed

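Kidney cortex RNA of 15 sheep fetuses was labelled with Cy3 and hybridised to 1-colour Agilent ovine arrays on 2 slides, per the labels' protocols. The deposited scanner files hold intensity values, which the authors' scanner software (Feature Extraction 10.1.1.1, per the file headers) had processed and spatially detrended. The authors' deposited value table holds log2 values, with scaling and centring not given in the sources used here. In it 12 of 15 columns followed another array of their own group best, so it served as an alternative by group only. The submitters' processing notes name limma. A genome build was not given in the sources used here, so no coordinates are printed.

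Outlier spots (1 of a member, of TLR2) were left out, spots of a probe averaged, and log2 signal taken minus the array's 75th percentile (1064 to 1425 scanner units). A probe was tested when well above background on at least 3 of 15 arrays (12923 probes), with limma 3.58.1 in R 4.3.3, 1 mean per group over all 15 arrays, two-sided, with Benjamini-Hochberg adjustment over all tested probes. Of 15008 probes 1562 have a gene name, 828 of these through a RefSeq accession or gene ID. Between 75.6% and 85.2% of probes were well above background on an array, 0 spots of the members were saturated, and precision is limited by how few arrays a group has. The scripts were tested on simulated data.

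Other pathway genes were named where called, at most 4 per role by size. Alike genes were the 3 with the highest Pearson r. The members and all lists were chosen with earlier results of these data known. Replicate numbers did not pair the fetuses (21 same-numbered pairs, r from -0.292 to 0.370, 3 over 0.1). Alternatives were normexp (offset 50), quantile scaling, the deposited values, 2 other filters, slide and replicate blocks, single slides, array weights, probe means and left-out arrays. Leaving out the 2 least correlated arrays was chosen after seeing the data.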

Additional observations from a re-analysis of the deposited data

Results flagged for a closer look

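In 3 of 48 groups of 4 arrays the highest or lowest array was separated from the other 3 by more of the group's range than Dixon's 95% critical value, where chance alone gives about 1 in 20. For MYD88 in hypoxic ketamine fetuses replicate 2 was highest and its gap was 0.878 of the range. For TLR7 in the same group replicate 2 was also highest, with a gap of 0.879. For the second MYD88 probe in hypoxic vehicle fetuses replicate 2 was lowest, with a gap of 0.877.

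The interaction of hypoxia and ketamine was called before adjustment for NFKBIA (-1.74), TLR4 (-1.46) and the second CD14 probe (-1), each with an adjusted p = 0.989. The main CD14 probe, which shares 59 of its 60 bases with the second, was not called (-0.67). The call of the second probe was lost with normexp background correction, within each slide and without any 1 of 8 arrays, and those of NFKBIA and TLR4 were lost without several single arrays as well.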

How the results depend on the processing

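Of the 9 tested genes 5 were called in hypoxic against normoxic vehicle fetuses. The count was 3 within slide 1, 1 within slide 2 and 4 to 6 when single arrays were left out. In hypoxic against normoxic ketamine fetuses the count of 1 became 0 within slide 1 and without the 3 arrays with placental lactogen. It became 2 within slide 2, where TLR5 was called higher and TLR4 lower and TLR3 was not called. It was also 2 in a fit of the groups compared alone, where TLR3 and NFKBIA were higher. Without hypoxic vehicle replicate 4 and hypoxic ketamine replicate 2 it was 2 as well, with 1 gene higher and TLR4 lower. It was 1 without any single array. For ketamine against vehicle in hypoxic fetuses the count of 4 became 1 with normexp background correction, 2 in the deposited values, 0 within slide 1 and 2 in a fit of the groups compared alone, and was 3 to 5 with single arrays left out. In normoxic fetuses the count of 0 became 1 with array weights and without those 2 arrays, and was 0 without any single array. The interaction count of 2 became 1 with normexp, 0 within slide 1, and 5 with array weights, without the placental lactogen arrays and without those 2 arrays, and was 0 to 5 with single arrays left out. No call changed to a call in the opposite direction under any of these settings. Normexp moved the median of all probes by 0.147 for the interaction, 0.113 in ketamine fetuses and 0.102 in hypoxic fetuses. The causes of these changes were not tested.

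With the replicate number as a block the interaction count was 0, with NFKBIA at -1.63 and TLR4 at -1.31. The numbers do not pair the fetuses, and the block gave 4 calls in vehicle fetuses, 1 in ketamine fetuses and 3 between ketamine and vehicle in hypoxic fetuses.

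With 3 or 4 fetuses a group and 1 time point, intervals are wide, and TLR5, TLR7, TLR8, TLR9 and TLR1 lie near or below the detection limit of the arrays.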
